A study of Mus musculus with 9 samples.

Results

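The levels of 10 genes of smooth-muscle-type contraction, the apparatus with which mammary myoepithelial cells squeeze milk out of the alveoli, were compared across 3 mouse cell populations. The 10 members were Acta2, Actg2, Myh11, Myl9, Mylk, Cnn1, Tagln, Tpm2, Lmod1 and Oxtr, out of 20422 genes measured on 9 Affymetrix mouse gene arrays, and all 10 were measured. They were taken by name for their role and not by a rule on their values, though with earlier results of these data known. A gene's level is the mean log2 intensity of its probe sets that carry exactly 1 gene symbol, 136 probe sets for the 10 genes, from 2 for Oxtr to 42 for Myh11. The 3 populations, with 3 arrays each, were ME (control mammary epithelial cells), D-ME-iPSC (cells differentiated from induced pluripotent stem cells, iPSCs, that had been made from ME cells) and D-TF-iPSC (cells differentiated in the same way from iPSCs made from tail tip fibroblasts). The study's methods say in general that RNA came from freshly isolated cells, without naming the ME arrays. The iPSCs of both origins had been reprogrammed with retroviral Oct4, Sox2, Klf4 and c-Myc and differentiated in 2 steps in mammary epithelial medium. Both kinds also received a lentiviral EGFP reporter. The tail tip fibroblasts were taken from mice 2 months old and the ME cells for reprogramming from virgin females 2 or 6 months old. The strain, the age of the mice behind the ME arrays, whether the lines on the arrays carried the Rosa26 reporter used in the study's transplants, and whether the 3 arrays of a group were separate mice, iPSC lines or cultures were not given in the sources used here, so the p-values measure only the spread between these arrays, which may be technical.

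Myoepithelial cells are basal epithelial cells that wrap the luminal, milk-producing cells and carry a contractile apparatus like that of smooth muscle. Oxytocin binds its receptor Oxtr and raises calcium inside the cell, calmodulin switches on the myosin kinase Mylk, Mylk phosphorylates the regulatory light chain Myl9, and the myosin heavy chain Myh11 then pulls on filaments of the actins Acta2 and Actg2. Tpm2 lies along the actin filament, Cnn1 and Tagln bind it and stabilise it, and Lmod1 starts new filaments. Many of these genes are driven by serum response factor (Srf), which binds the CArG box, and the same genes are also switched on in myofibroblasts, pericytes and vascular smooth muscle.

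Promoter sequence, 250 bases before to 50 bases after the annotated start site, was at hand for 7 of the 10 genes (RefSeq, build GRCm38.p6), namely Acta2, Cnn1, Myl9, Mylk, Oxtr, Lmod1 and Tpm2. The windows of Mylk (chr16:34784700-34784999) and Oxtr (chr6:112489776-112490075) lay wholly inside the annotated genes (chr16:34745199-35002436 and chr6:112473683-112491035). The start sites used for Mylk and Oxtr were therefore internal to the gene. The promoters were searched for the CArG box (CC, a run of only A and T, then GG, which reads alike on both strands) and for the MCAT letters CATTCC on either strand, which TEAD factors bind. An exact CArG box was present in 1 of these 7 promoters (Myl9) and in 1.63% of 32851 promoters of the same length, and a box with up to 1 mismatch in its inner run in 2 of 7 (Acta2 and Myl9) against 9.98%. CATTCC was present in 3 of 7 (Acta2, Mylk and Lmod1) against 14.7%. The MCAT letters began 146 bases before the start site in Acta2, 158 in Mylk and 130 in Lmod1, and none overlapped a CArG box. The promoters of Acta2 (minus strand, chr19:34255324-34255623) and Myl9 (plus strand, chr2:156775214-156775513) are shown because they hold the CArG boxes, which stand in capitals. Both genes were lower in ME replicates 2 and 3 than on every D-TF-iPSC array. The same was true of Cnn1 and Tpm2, whose promoters held no such box in this window.
Acta2: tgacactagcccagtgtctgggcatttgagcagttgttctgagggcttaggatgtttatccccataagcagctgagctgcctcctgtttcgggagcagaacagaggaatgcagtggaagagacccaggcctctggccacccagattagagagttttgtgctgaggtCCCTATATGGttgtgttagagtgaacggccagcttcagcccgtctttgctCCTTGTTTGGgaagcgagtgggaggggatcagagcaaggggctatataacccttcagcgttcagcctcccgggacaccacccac
Myl9: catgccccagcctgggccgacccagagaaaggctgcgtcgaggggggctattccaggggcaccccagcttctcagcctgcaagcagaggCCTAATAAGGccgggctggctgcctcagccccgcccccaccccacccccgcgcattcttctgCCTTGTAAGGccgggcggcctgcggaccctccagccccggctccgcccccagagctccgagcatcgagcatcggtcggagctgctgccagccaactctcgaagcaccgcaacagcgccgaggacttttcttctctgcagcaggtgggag
The boxes of Acta2 began 84 and 34 bases before the start site, and those of Myl9 began 161 bases (the exact box, CCTAATAAGG) and 99 bases before it. A match describes letters in this window, and the arrays did not measure binding of any factor.

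One array stood apart from its label. Across all genes, the array labelled ME replicate 1 correlated with the D-ME-iPSC arrays at r = 0.991 to 0.993 and with the 2 other ME arrays at only 0.920 and 0.943, whereas ME replicates 2 and 3 correlated with each other at 0.973. The same held for the contractile genes. On ME replicate 1 every member lay within 0.126 of the D-ME-iPSC mean on the log2 scale (the largest distance was that of Myl9), while ME replicate 2 departed from that mean by up to 3.04 (Actg2) and ME replicate 3 by up to 1.00 (Myl9). The calls that use the ME group are therefore given with all 9 arrays and again without ME replicate 1, an array picked out on these same values. What this array holds was not tested.

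Across the 3 populations the contractile genes did not move as a block. Myh11 was higher on every mammary-derived array than on every D-TF-iPSC array and passed in both comparisons with D-TF-iPSC. Acta2 and Myl9 also lay apart from D-TF-iPSC on all 6 mammary-derived arrays, on the lower side. Actg2, Myl9, Tagln, Tpm2, Cnn1 and Acta2 had nearly one level in both iPSC-derived groups, or a slightly higher one in D-TF-iPSC, and were lower on ME replicates 2 and 3. Mylk was higher on those same 2 ME arrays, Oxtr was high on 1 of them, and Lmod1 differed little anywhere. Levels are compared within a gene only, because probe sets of different genes differ in brightness, and whether any level is above background cannot be read from these values.

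**Figure D1:**
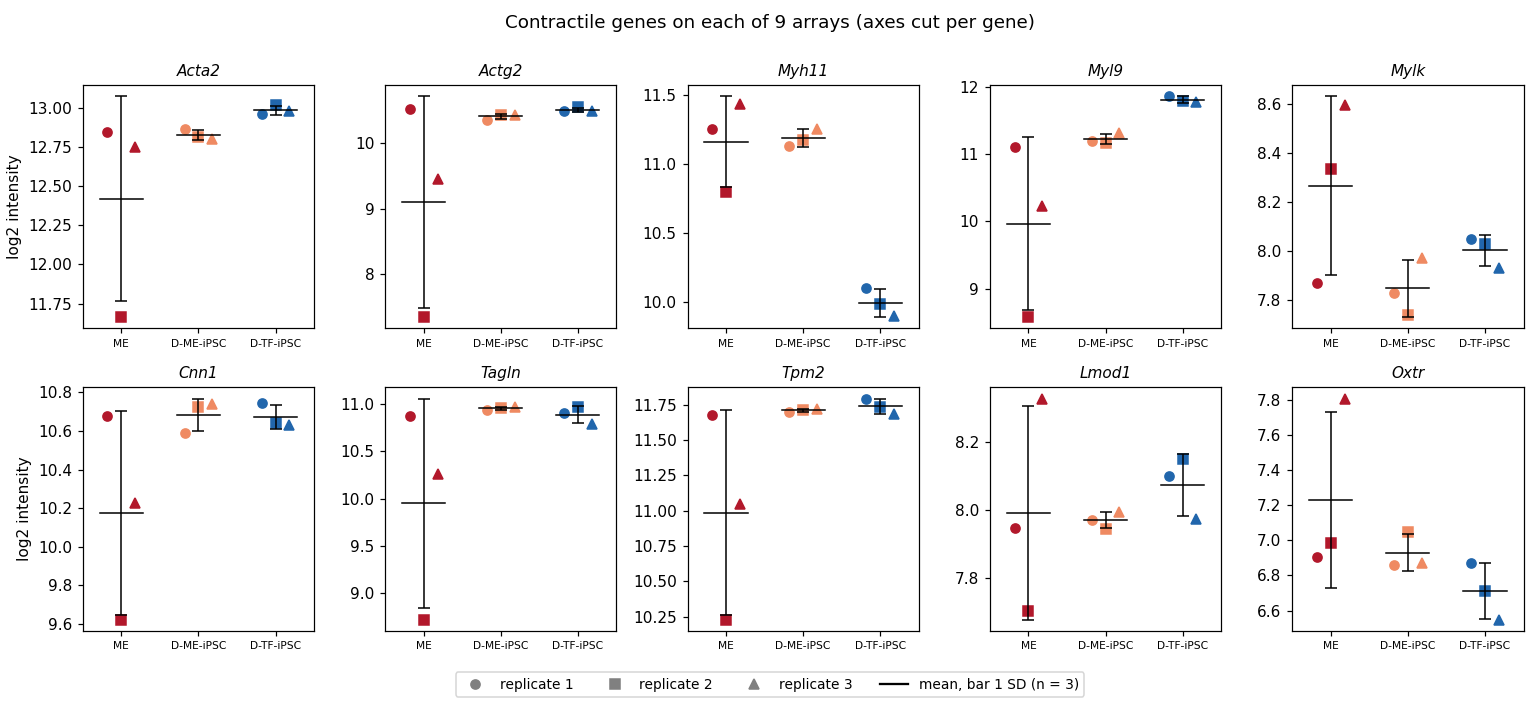
Log2 intensity (y axis, cut separately for each gene) of the 10 contractile genes on each array, with points for arrays, a line for the group mean and bars for 1 SD (n = 3). The Myh11 panel shows the D-TF-iPSC arrays between 9.89 and 10.10, below every other array, and the ME arrays spread widely in most other panels.

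Among the force-producing proteins, the heavy chain Myh11 read 11.26, 10.80 and 11.44 on ME replicates 1 to 3. It read 11.13, 11.18 and 11.26 in D-ME-iPSC and 10.10, 9.98 and 9.89 in D-TF-iPSC. All 6 mammary-derived arrays lay above all 3 fibroblast-derived arrays. Myh11 was 2.25-fold higher in ME than in D-TF-iPSC (log2 difference 1.17, SE 0.16, 95% confidence interval 0.82 to 1.53, limma adjusted p = 0.0012) and 2.29-fold higher in D-ME-iPSC relative to D-TF-iPSC (1.20, SE 0.16, interval 0.84 to 1.55, adjusted p = 0.0012). With ME replicate 1 left out, the ME difference was 1.13 (adjusted p = 0.00048). ME and D-ME-iPSC differed by -0.02, with an interval from -0.38 to 0.33 (adjusted p = 0.95). The study also drew a gene list from these same arrays. Its full table could not be read in the sources used here, and the members named in the study's text do not include Myh11. If Myh11 is on that list, its direction there is not independent evidence.

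The Myh11 difference did not rest on a few probe sets. All 42 were higher in ME than in D-TF-iPSC, by 0.17 to 2.54 with a median of 1.18 on the log2 scale, and all 42 were higher in D-ME-iPSC relative to D-TF-iPSC, by 0.26 to 2.25 with a median of 1.25. Taken singly, 29 and 32 of them passed. In the brightest of its probe sets the difference shrank to 0.50 in both comparisons and did not pass (adjusted p = 0.069 for ME and 0.085 for D-ME-iPSC). The ME call was also lost under the adjusted form of the methods' t-test (adjusted p = 0.079) and was kept in 18 of 20 alternatives, against 19 of 20 for D-ME-iPSC.

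The regulatory light chain Myl9, the substrate of Mylk, followed another course. It read 11.10, 8.58 and 10.23 in ME, whereas it read 11.20, 11.16 and 11.32 in D-ME-iPSC and 11.87, 11.80 and 11.78 in D-TF-iPSC. No array of ME or D-ME-iPSC reached the lowest D-TF-iPSC array. Myl9 was 3.59-fold lower in ME than in D-TF-iPSC (log2 difference -1.85, SE 0.50, interval -2.97 to -0.72, adjusted p = 0.035), and this call was lost without ME replicate 3 (adjusted p = 0.066) or without any 1 of the 6 iPSC-derived arrays (0.060 to 0.11). It was lost too when limma was fitted to the compared groups alone (adjusted p = 0.11) and under the test named in the study's methods, before adjustment as well as after it. In all, 10 of 20 alternatives kept the call. With ME replicate 1 left out it was -2.41 (adjusted p = 0.00053). The D-ME-iPSC difference from D-TF-iPSC was -0.59 (SE 0.50, interval -1.71 to 0.54, adjusted p = 0.57).

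Of the actins, Acta2, smooth muscle alpha-actin and the usual marker of myoepithelial cells and myofibroblasts, read 12.85, 11.66 and 12.75 in ME. It read 12.86, 12.81 and 12.80 in D-ME-iPSC and 12.96, 13.02 and 12.98 in D-TF-iPSC. The D-TF-iPSC arrays were the highest, and the 3 groups otherwise spanned a narrow range apart from ME replicate 2. With all 9 arrays Acta2 differed by -0.56 between ME and D-TF-iPSC (SE 0.26, adjusted p = 0.19) and by -0.16 in D-ME-iPSC against D-TF-iPSC (interval -0.76 to 0.44, adjusted p = 0.82).

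Actg2, the gamma-actin of visceral smooth muscle, had the largest SD of any member within ME (1.60, n = 3). It read 10.51, 7.36 and 9.44 in ME, against 10.35, 10.42 and 10.42 in D-ME-iPSC and 10.48, 10.53 and 10.47 in D-TF-iPSC. ME replicate 1 sat with the iPSC-derived cells and the other two ME arrays lay below all of them. The difference between ME and D-TF-iPSC was -1.39 with all arrays (SE 0.62, adjusted p = 0.17) and -2.10, or 4.28-fold lower, without ME replicate 1 (SE 0.45, adjusted p = 0.0044).

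Genes of the actin-filament proteins shared the pattern of Actg2 across the ME arrays. Cnn1, calponin, which restrains myosin on the filament, read 10.68, 9.62 and 10.22 in ME, against 10.59, 10.73 and 10.74 in D-ME-iPSC and 10.74, 10.64 and 10.63 in D-TF-iPSC. Tagln, the actin cross-linker transgelin, read 10.87, 8.72 and 10.26 in ME, whereas it read 10.94, 10.96 and 10.97 in D-ME-iPSC and 10.90, 10.97 and 10.79 in D-TF-iPSC. Tpm2, beta-tropomyosin, read 11.68, 10.23 and 11.05 in ME, against 11.70, 11.71 and 11.72 in D-ME-iPSC and 11.80, 11.74 and 11.69 in D-TF-iPSC. For each of these 3 genes, ME replicates 2 and 3 lay below all 6 iPSC-derived arrays and ME replicate 1 lay near the D-ME-iPSC mean, at most 0.08 from it. None passed with all 9 arrays, with differences between ME and D-TF-iPSC of -0.50 for Cnn1 (adjusted p = 0.18), -0.94 for Tagln (0.19) and -0.75 for Tpm2 (0.12). When ME replicate 1 was left out the differences were -0.75 (adjusted p = 0.0038), -1.40 (0.0084) and -1.10 (0.0014), and all 3 passed.

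Lmod1, leiomodin, the smooth muscle actin nucleator, read 7.95, 7.70 and 8.33 in ME, whereas it read 7.97, 7.95 and 7.99 in D-ME-iPSC and 8.10, 8.15 and 7.97 in D-TF-iPSC. The groups overlapped, and Lmod1 passed in no comparison with or without ME replicate 1. Its difference between ME and D-TF-iPSC was -0.08, with an interval from -0.42 to 0.26.

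The 2 members that start the contraction, Mylk and Oxtr, had positive differences in both comparisons of ME. Mylk read 7.87, 8.33 and 8.59 in ME, against 7.83, 7.74 and 7.97 in D-ME-iPSC and 8.05, 8.03 and 7.93 in D-TF-iPSC. ME replicates 2 and 3 lay above all other arrays. With all 9 arrays its difference was 0.26 between ME and D-TF-iPSC (adjusted p = 0.36) and 0.42 between ME and D-ME-iPSC (interval 0.04 to 0.80, adjusted p = 0.25). In D-ME-iPSC against D-TF-iPSC it was -0.16 (adjusted p = 0.69), with 24 of 37 probe sets negative. Leaving out ME replicate 1, Mylk was higher in ME by 0.46 (adjusted p = 0.0084) and 0.62 (adjusted p = 0.0019).

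Oxtr, the oxytocin receptor, read 6.90, 6.98 and 7.81 in ME, whereas it read 6.86, 7.05 and 6.87 in D-ME-iPSC and 6.87, 6.71 and 6.55 in D-TF-iPSC. The ME level rested on replicate 3, while replicates 1 and 2 lay within the D-ME-iPSC range. The difference between ME and D-TF-iPSC was 0.52 (SE 0.22, interval 0.02 to 1.02, adjusted p = 0.15). Oxtr was read by only 2 probe sets, whose differences were 0.08 and 0.96.

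In the comparison of ME with D-TF-iPSC, 1 of the 10 contractile genes was called higher (Myh11) and 1 lower (Myl9) at an adjusted p below 0.05, beside 16.3% of all genes. The median log2 difference was -0.53 over the 10 and 0.01 over all genes. The arrays of the 2 groups lay apart without overlap for 5 members, with Myh11 and Oxtr higher and Acta2, Myl9 and Tpm2 lower, beside 29.4% of all genes. Of single probe sets, 29 of 136 were called, all of them Myh11 and all higher, beside 7.38% of all probe sets. Every probe set of Acta2, Actg2, Cnn1, Tagln, Myl9 and Tpm2 had a negative difference and every one of Oxtr a positive one, whereas Mylk had 26 positive and 11 negative.

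Without ME replicate 1 the calls were 3 higher (Myh11, Mylk and Oxtr) and 6 lower (Acta2, Actg2, Cnn1, Tagln, Myl9 and Tpm2), but 39.1% of all genes were then called too. Oxtr was higher by 0.68 (adjusted p = 0.026) and Acta2 lower, with a difference of -0.78 (adjusted p = 0.029). The median over the members was -0.76 and over all genes 0.04. Of the members' probe sets 75 were called, beside 20.5% of all.

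D-ME-iPSC and D-TF-iPSC, the comparison of the 2 donor origins after the same differentiation, differed in 1 contractile gene, Myh11, beside 13.3% of all genes. The other 9 did not pass, and their differences ran from -0.59 (Myl9) to 0.22 (Oxtr), with intervals as wide as -1.50 to 1.30 for Actg2. The median over the 10 was -0.06. The arrays lay apart for 4 members (Myh11 higher and Acta2, Actg2 and Myl9 lower), beside 48.4% of all genes. These intervals carry the spread of the ME arrays, since 1 spread was estimated over all 9. With only the 6 arrays compared, Myl9 also passed (-0.59, adjusted p = 0.00016), beside 38.3% of all genes.

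Of the members' single probe sets 34 passed in that comparison, beside 5.32% of all, of which 32 belonged to Myh11. The other two were 1 of 37 for Mylk and 1 of 14 for Tpm2. The Mylk probe set read 8.90, 8.67 and 8.97 in D-ME-iPSC and 10.12, 10.23 and 10.38 in D-TF-iPSC (difference -1.40, SE 0.22, adjusted p = 0.0071). It read 9.07, 9.58 and 9.68 in ME, between the iPSC-derived groups. The Tpm2 probe set read 6.56, 7.34 and 7.13 in D-ME-iPSC and 9.13, 8.73 and 8.82 in D-TF-iPSC (-1.88, SE 0.42, adjusted p = 0.035), although the gene's mean differed by only -0.03. In ME that probe set read 7.31, 7.36 and 8.90. Both stood out from the rest of their gene, and which exon they read was not given in the sources used here.

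**Figure D2:**
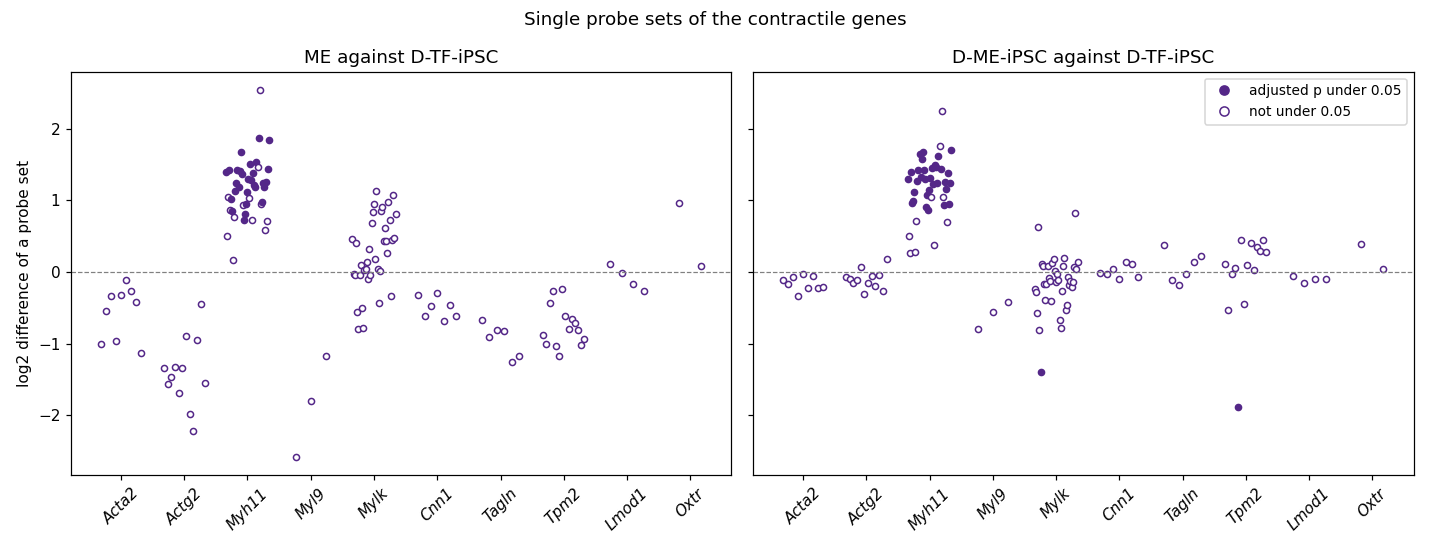
Log2 difference (y axis) of each of the 136 probe sets of the contractile genes, for ME against D-TF-iPSC (left) and D-ME-iPSC against D-TF-iPSC (right), filled where the adjusted p was under 0.05. All 42 Myh11 probe sets lie above 0 in both panels, and in the right panel the single filled points of Mylk (-1.40) and Tpm2 (-1.88) lie below all others of their genes.

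ME against D-ME-iPSC sets the differentiated cells beside the kind of cell they were made from. Whether the ME arrays came from the donor cells themselves was not given in the sources used here. In this comparison no contractile gene and 0% of all genes passed in limma with all 9 arrays. At an unadjusted p below 0.05, 5 members (Cnn1, Tagln, Myl9, Mylk and Tpm2) and 3857 genes did, and the methods' t-test called 1074 genes before adjustment and 0 after it. The arrays lay apart for 3 members, all lower in ME (Tagln, Myl9 and Tpm2), beside 14.1% of all genes. No single probe set passed, beside 0% of all, although 25 of the members' 136 and 28749 of all had an unadjusted p below 0.05. Without ME replicate 1, Mylk was higher in ME and 5 members were lower, namely Actg2 (-2.00), Cnn1 (-0.76), Tagln (-1.47), Myl9 (-1.83) and Tpm2 (-1.07), with adjusted p from 0.0018 to 0.0070, beside 38.7% of all genes. Of their probe sets 38 were then called, beside 18.5% of all. In the same setting the comparison of D-ME-iPSC with D-TF-iPSC still called Myh11 alone of the 10, beside 28.3% of genes, and 37 probe sets, beside 11.2%.

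**Figure D3:**
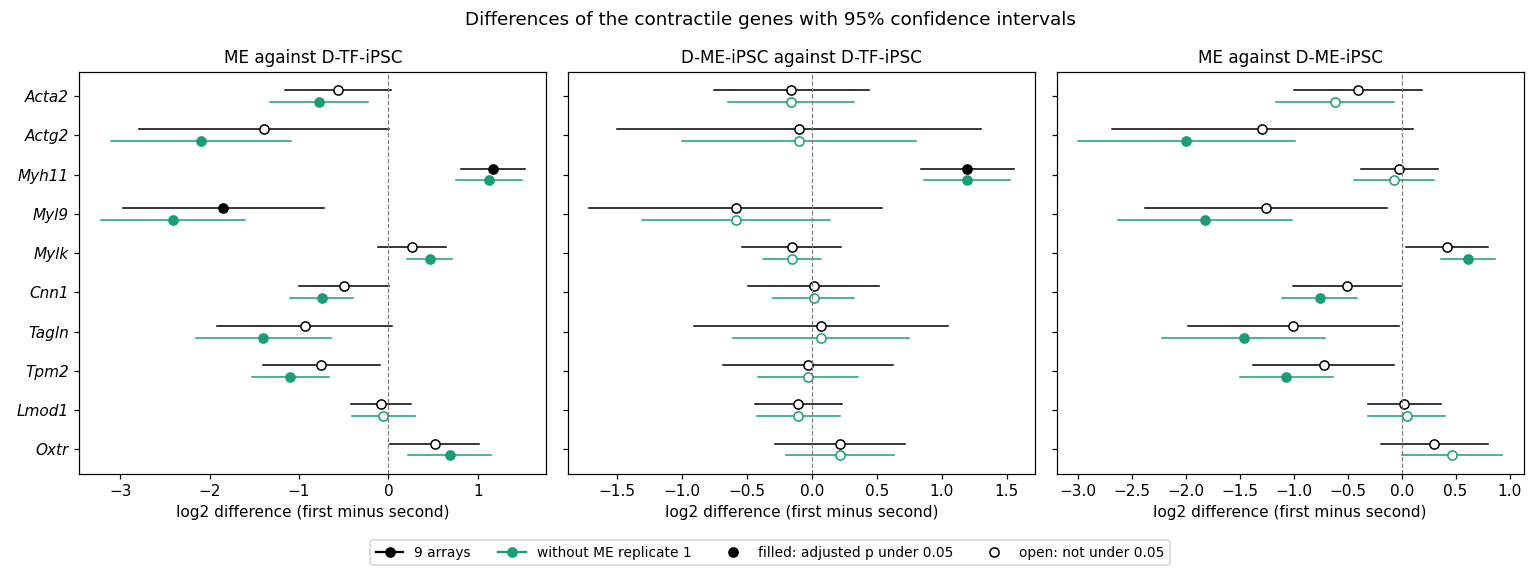
Log2 difference (x axis, first group minus second) of each contractile gene with its 95% confidence interval, with all 9 arrays (black) and without ME replicate 1 (green), filled where the adjusted p was under 0.05. With 9 arrays only Myh11 and Myl9 are filled, and without ME replicate 1 all but Lmod1 are filled in the left panel.

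Of 81 other genes of the pathway, 79 were measured (Rock2 and Ednra were not analysed here). In ME against D-TF-iPSC 7 were higher and 8 lower, in D-ME-iPSC against D-TF-iPSC 7 were higher and 7 lower, and in ME against D-ME-iPSC 0 passed (34 at an unadjusted p below 0.05), beside the 16.3%, 13.3% and 0% of all genes. All 15 called in the first comparison were called the same way without ME replicate 1, when 45, 27 and 46 of the 79 were called in the 3 comparisons, beside 39.1%, 28.3% and 38.7% of all genes. The median differences over the 79 were -0.10 and 0.04 in the first 2 comparisons.

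Among Srf and its cofactors, the comparison with D-TF-iPSC called 2 of 10 higher and 2 lower for ME and called 3 higher and 1 lower for D-ME-iPSC. Srf itself read 8.81, 9.10 and 9.13 in ME, against 8.90, 8.89 and 8.91 in D-ME-iPSC and 8.14, 8.13 and 8.00 in D-TF-iPSC. It was higher in both mammary-derived groups, by 0.92 (SE 0.11, adjusted p = 0.00064) and 0.81 (adjusted p = 0.0014), while most contractile genes were not. Csrp2, a LIM protein of smooth muscle, was lower in both (-1.58 and -1.30) and its groups did not overlap. Mrtfb, an actin-sensing Srf cofactor, was higher in D-ME-iPSC by 0.67 (adjusted p = 0.027), and Elk1, a growth-responsive Srf partner, was lower in ME (-0.54, adjusted p = 0.0076). Csrp1, singled out after its values were seen, was higher in both (0.35 and 0.57). Myocd, the smooth muscle cofactor of Srf, read between 5.91 and 6.27 on all 9 arrays and passed in no comparison.

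Of 20 other thin-filament and actin-binding genes, 1 was higher and 2 lower in ME, while D-ME-iPSC had 1 higher and 1 lower. The cross-linker Actn4 was higher by 0.50 and 0.62, Des, the muscle intermediate filament, was lower (-0.51 and -0.55), and Tagln3, a neuronal relative of Tagln, was lower in ME (-0.42). Of the other actins 1 of 4 passed, the cytoplasmic Actg1, which was higher by 0.46 and 0.40. Of the other myosin chains 1 of 7 passed, the non-muscle heavy chain Myh14, which read 7.84, 7.66 and 7.62 in ME, whereas it read 7.94, 7.78 and 8.10 in D-ME-iPSC and 6.91, 7.05 and 6.98 in D-TF-iPSC. It was higher by 0.73 (adjusted p = 0.0026) and 0.96 (adjusted p = 0.00066), as Myh11 was.

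Ppp1r12b, a targeting subunit of myosin phosphatase, was lower in both mammary-derived groups (-0.34 and -0.47). Prkg1, the cGMP-dependent kinase that relaxes smooth muscle, read 8.69, 10.05 and 9.63 in ME, against 8.44, 8.40 and 8.56 in D-ME-iPSC and 9.85, 9.72 and 9.80 in D-TF-iPSC. ME replicate 1 stood near D-ME-iPSC and the other two near D-TF-iPSC. Prkg1 was lower in D-ME-iPSC relative to D-TF-iPSC (-1.32, adjusted p = 0.014).

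Of the receptor, G protein and calcium genes 1 of 20 was higher and 3 lower in each mammary-derived group. Avpr1a, the vasopressin receptor closest to Oxtr, was lower in ME (-1.12, adjusted p = 0.0061) and in D-ME-iPSC (-1.70, adjusted p = 0.00076), with all 6 arrays below the D-TF-iPSC range. Plcb4, a phospholipase that links G proteins to calcium release, was lower by the same measure (-1.12 and -0.87), as was the calcium channel Cacna1c (-0.95 and -1.08), which was singled out after its values were seen. The higher genes were Plcb1 in ME (0.42) and the calcium-release channel Itpr3 in D-ME-iPSC (0.73).

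**Figure D4:**
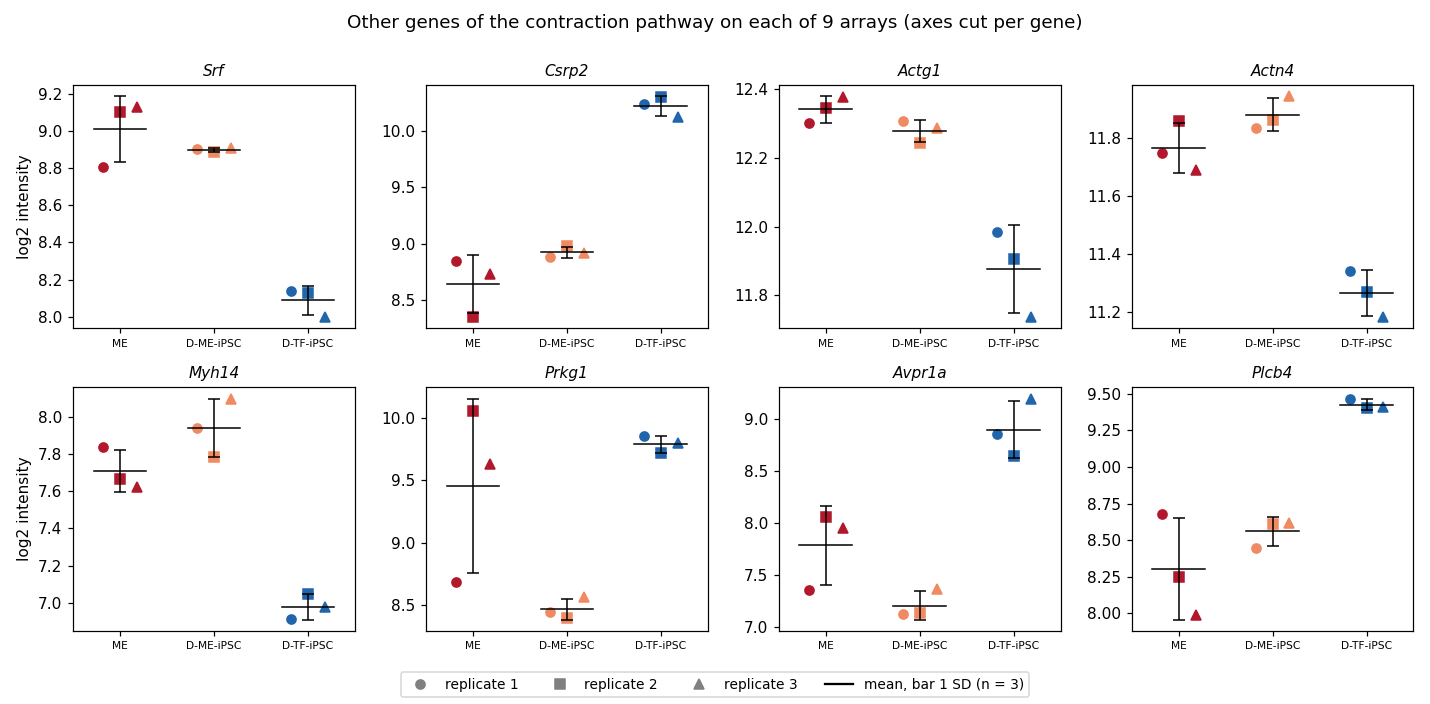
Log2 intensity (y axis, cut separately for each gene) of 8 other pathway genes on each array, with points for arrays, a line for the mean and bars for 1 SD (n = 3). Srf, Actg1, Actn4 and Myh14 are higher on all 6 mammary-derived arrays than in D-TF-iPSC, Csrp2, Avpr1a and Plcb4 are lower, and Prkg1 splits the ME arrays.

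Without ME replicate 1, 12 of 20 thin-filament genes were called lower and 2 higher in ME against D-TF-iPSC, beside 39.1% of all genes called. Against D-ME-iPSC 11 of 20 were lower and 2 higher, beside 38.7% of all genes called. Of the Srf list 5 of 10 were then lower and 0 higher in ME against D-ME-iPSC, beside the same 38.7%.

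Markers of the cell types these populations could hold moved with the groups, and since a sample is a mixture, fewer cells of a type and less RNA per cell cannot be told apart. Against D-TF-iPSC, of 8 basal and myoepithelial markers that are not contractile, 5 were higher and 1 was lower for ME, while for D-ME-iPSC the counts were 6 and 2. The higher ones included Krt5, by 2.56 and 3.63, and Trp63, by 2.15 and 2.35. Lgr5 and Snai2 went the other way. Without ME replicate 1 their differences for ME and D-ME-iPSC were -2.27 and -1.81 (Lgr5) and -0.38, not called, and -0.91 (Snai2). The study discusses Trp63 (p63) with signature genes it drew from these same arrays, so its direction is not independent evidence. The mean level of that list was 9.16 to 10.2 on the ME arrays, 10.2 in D-ME-iPSC and 8.69 to 8.70 in D-TF-iPSC, and the D-TF-iPSC mean lay within 0.59 of the D-ME-iPSC mean for 9 of the 10 contractile genes. Of 8 luminal markers 7 were higher in ME and 6 in D-ME-iPSC. Of 8 fibroblast and myofibroblast markers 8 and 7 were lower. The luminal list holds Elf5, and the fibroblast list holds Prrx1 and collagens. The study names these too with signature genes from these same arrays, so their directions are not independent evidence either. The fibroblast list averaged 8.96 to 9.52 in ME, 9.49 to 9.53 in D-ME-iPSC and 11.0 to 11.1 in D-TF-iPSC. The part of these cell types in the contractile gene levels was not tested.

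Within ME, the array with the lowest contractile levels stood at one end of the luminal, basal and most other marker lists. ME replicate 2 had the highest luminal mean (11.4, against 9.80 and 10.9 on replicates 1 and 3) and the lowest basal mean (9.16, against 10.2 and 9.91). Its fibroblast and myofibroblast mean was also the lowest of the ME arrays (8.96, against 9.52 and 9.35). On the cardiac, skeletal muscle and pluripotent lists it was the highest of them (7.08, 6.69 and 6.46). Its mean over the 10 contractile genes was 9.00, against 10.17 and 10.01. Of 8 pericyte and vascular smooth muscle markers 2 were lower in ME and 0 passed in D-ME-iPSC. That list averaged 7.93, 7.48 and 7.32 on ME replicates 1 to 3, with replicate 2 in the middle, and 7.92 to 8.02 in D-ME-iPSC and 8.06 to 8.22 in D-TF-iPSC. No marker of the cardiac, skeletal muscle or pluripotent lists, 8 genes each, passed in any comparison with all 9 arrays, although at an unadjusted p below 0.05 there were 4, 3 and 2 of the 24 in the 3 comparisons. Without ME replicate 1, 38.7% of all genes were called between ME and D-ME-iPSC. There the basal list gave 4 of 8 lower in ME and the luminal list 5 of 8 higher. The cardiac list gave 2 of 8 higher and 1 lower, the skeletal list 2 higher and 1 lower, and the pluripotent list 4 higher. Against D-TF-iPSC, ME then gave 2 higher and 1 lower, 1 higher, and 2 higher in these last 3 lists, beside 39.1% of all genes. D-ME-iPSC against D-TF-iPSC gave 1 higher and 1 lower, 1 higher, and 0, beside 28.3%.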

How the data were processed

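RNA of 9 samples was hybridised to Affymetrix mouse gene arrays, 1 array per sample. The authors deposited log2 intensities normalized by RMA in Partek (versions not given in the sources used here), with values from 2.56 to 14.4 and no detection calls, so signal over background could not be weighed. Per the platform annotation, 212138 of 241576 probe sets had 1 gene symbol, 4672 had several and 24766 had none. Probe sets with 1 symbol were averaged into 20422 genes. No genome of the arrays' build was used, and no probe set was placed on an exon.

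Groups came from the cell type labels. Genes, and separately single probe sets, were fitted with limma 3.58.1 in R 4.3.3 (lmFit and eBayes, 1 mean per group over 9 arrays), and p-values were adjusted by Benjamini-Hochberg over all genes or probe sets. A call is an adjusted p below 0.05. The fit was tested on simulated data. Replicate numbers in the labels did not pair the arrays (correlation of deviations -0.18 to 0.16), so no block was used.

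The members, the 6 pathway lists and the 7 marker lists were chosen with earlier results of these data known. The text names all 10 members and, from each pathway list, the 2 called genes with the largest difference in each direction. The counts of 1 pathway list and 1 gene of it are not reported here. Alternatives were the normalization, the summary of probe sets, a filter on dim genes, the spread model, array weights, the arrays fitted, the replicate block, the methods' Student's t-test and leaving out each array. Promoters and gene names came from RefSeq tables (GRCm38.p6).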

Additional observations from a re-analysis of the deposited data

How the results depend on the processing

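Directions of the contractile genes held except where differences were near 0. In the contrast of the iPSC-derived groups, Cnn1 became -0.013 under quantile normalization and -0.011 under median centring, Tpm2 became 0.33 with the median of probe sets and 0.024 with the brightest, and Tagln -0.18 with the brightest. In the contrast of ME and D-ME-iPSC, Myh11 became 0.053 under quantile normalization, 0.042 under median centring and 0.23 with array weights. Lmod1 became 0.22 with array weights in ME against D-TF-iPSC. Leaving out 1 array at a time moved Cnn1 in the first of these contrasts to between -0.015 and 0.061, Myh11 in the second to between -0.16 and 0.16, and Lmod1 to between -0.25 and 0.062 (ME against D-TF-iPSC) and between -0.14 and 0.17 (ME against D-ME-iPSC).

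Calls are given for ME with D-TF-iPSC first, the 2 iPSC-derived groups second and ME with D-ME-iPSC last. With all arrays 3326, 2712 and 0 genes and 2, 1 and 0 members were called. The brightest probe set called 2207 and 1614 genes in the first 2 comparisons, with 1 and 0 members (Myh11 lost). Fitting only the 6 arrays compared called 1752 and 7816 genes, with 1 and 2 members. The methods' t-test without adjustment called 8341 genes in the second and 1074 in the last, with 1 and 4 members in the first 2. With adjustment it called 623 and 6183 genes, with 0 (Myh11 and Myl9 lost) and 3 members. Array weights called 12267, 8257 and 12059 genes and 10, 2 and 9 members, but their fit stopped before it converged and gave ME replicate 3 a weight of 8.98, against 0.0658 and 0.142 for the other two. Leaving out 1 array at a time gave 1824 to 7992, 1547 to 5782 and 0 to 7899 genes, 1 to 9, 1 to 1 and 0 to 6 members, and 10 to 75, 9 to 37 and 0 to 38 probe sets of members (29, 34 and 0 with all arrays). The highest of each, where they varied, came without ME replicate 1. With a replicate block, 2805, 2255 and 0 genes and 2, 1 and 0 members were called, so the block changed no count of members. The cause of these shifts was not tested.

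The 3 arrays per group, the unknown source of ME replicate 1 and the lack of detection calls limit what these values can show.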

Other observations

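Over the 9 arrays, the genes outside the list whose pattern was most like the mean of the 10 centred contractile genes were Preb (Pearson r = 0.990), Cnn3 (0.986), Nmt2 (0.982), Herc2 (0.981) and Tradd (0.981), given as a description of 9 points that share 3 groups. Without ME replicate 2, the array with the lowest contractile levels, the same values were 0.846, 0.845, 0.559, 0.609 and 0.357. Cnn3, an acidic relative of the calponin Cnn1, is itself an actin-binding protein. The members are part of that mean. Over the 9 arrays r with it was 0.983 for Tagln, 0.973 for Actg2, 0.970 for Acta2, 0.951 for Cnn1, 0.947 for Tpm2 and 0.905 for Myl9, and without ME replicate 2 it was 0.877, 0.766, 0.174, 0.878, 0.820 and 0.528. For Lmod1 it was 0.599 and -0.584, for Myh11 -0.01 and -0.03, for Oxtr -0.11 and -0.54 and for Mylk -0.51 and -0.69.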
